A study of Mus musculus with 6 samples.

Results

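The S100 genes described here are 10 members of the S100 family of calcium-binding proteins, S100a1, S100a4, S100a6, S100a8, S100a9, S100a10, S100a11, S100a13, S100a14 and S100a16. They were chosen by the fold changes and levels of an earlier comparison of these same high-load and control kidneys, so their differences between the groups are given as a description. Counts of calls among them are printed beside those over all genes, and nothing is read from them. The 10 are among 32285 genes of the count table and among 17 S100 genes in it, and all 10 passed the filter on low counts that 15955 genes passed. Kidney RNA of 6 mice, all females of 100 weeks, had been sequenced. Each animal carried mutated TrnE, which encodes the glutamate tRNA of mitochondria, and the groups differ in mutation load, the share of mitochondrial genomes with the mutation. Controls 1, 2 and 3 had loads of 10%, 5% and 15%, and high-load kidneys 1, 2 and 3 had loads of 75%, 75% and 80%. The comparison is therefore of a high with a low load, and kidneys without the mutation were not analysed here. Each library has a mouse code of its own in the labels.

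S100 proteins are small proteins with a pair of EF hands, the helix-loop-helix motif that holds a calcium ion. They have no enzymatic activity. Most form dimers that, on binding calcium, expose a surface to which target proteins such as annexins bind, and some are released from cells and bind receptors such as RAGE and TLR4. Most of the genes sit in a cluster inside the epidermal differentiation complex, a stretch of the genome that also holds genes of the skin barrier.

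Values are CPM, a gene's count as a share of its library with library sizes adjusted by TMM, and errors are SD over 3 kidneys. A fold change is high load over control. Its log2 value and standard error (SE) come from the edgeR fit across all genes. RNA came from the whole tissue, so fewer cells of a type and less RNA per cell cannot be told apart. Total counts per library were between 17449270 and 18865997. Kidney markers were at high levels in every library: the summed level of 7 proximal tubule genes was 8607 to 9699 CPM in controls and 2401, 7382 and 5499 CPM in high-load kidneys 1, 2 and 3. High-load 1 stood apart by the highest urothelial marker level and control 2 by the highest red cell marker level.

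High-load kidneys had more S100a14 mRNA than controls by a wide margin and more S100a6, S100a11 and S100a4 mRNA by smaller ones. S100a16, S100a1 and S100a13 were higher by less than 1.5-fold. For these 7 of the 10 genes every high-load kidney was above every control, and for 0 of the 10 was every high-load kidney below every control. Among all 15955 genes tested, 17.1% had groups that did not overlap with high load higher, and 15.8% with high load lower. Fold changes of all 10 members were on the higher side of 1, as were those of 50.9% of all genes, with 0 of the 10 and 49.1% of all genes on the lower side. The median log2 fold change of the 10 was 0.59, and that of all genes tested was 0.0067. The edgeR quasi-likelihood test across all genes called 1 of the 10 members higher at an adjusted p under 0.05, S100a14, and called 0.0188% of all genes higher. At an adjusted p under 0.1 it called 4 of the 10 higher, and 2.59% of all genes. DESeq2 called 6 of the 10 higher and 0 lower, where it called 4.51% of 23811 genes higher and 2.62% lower. Limma-voom called 0 of the 10 and 0 of all genes.

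**Figure D1:**
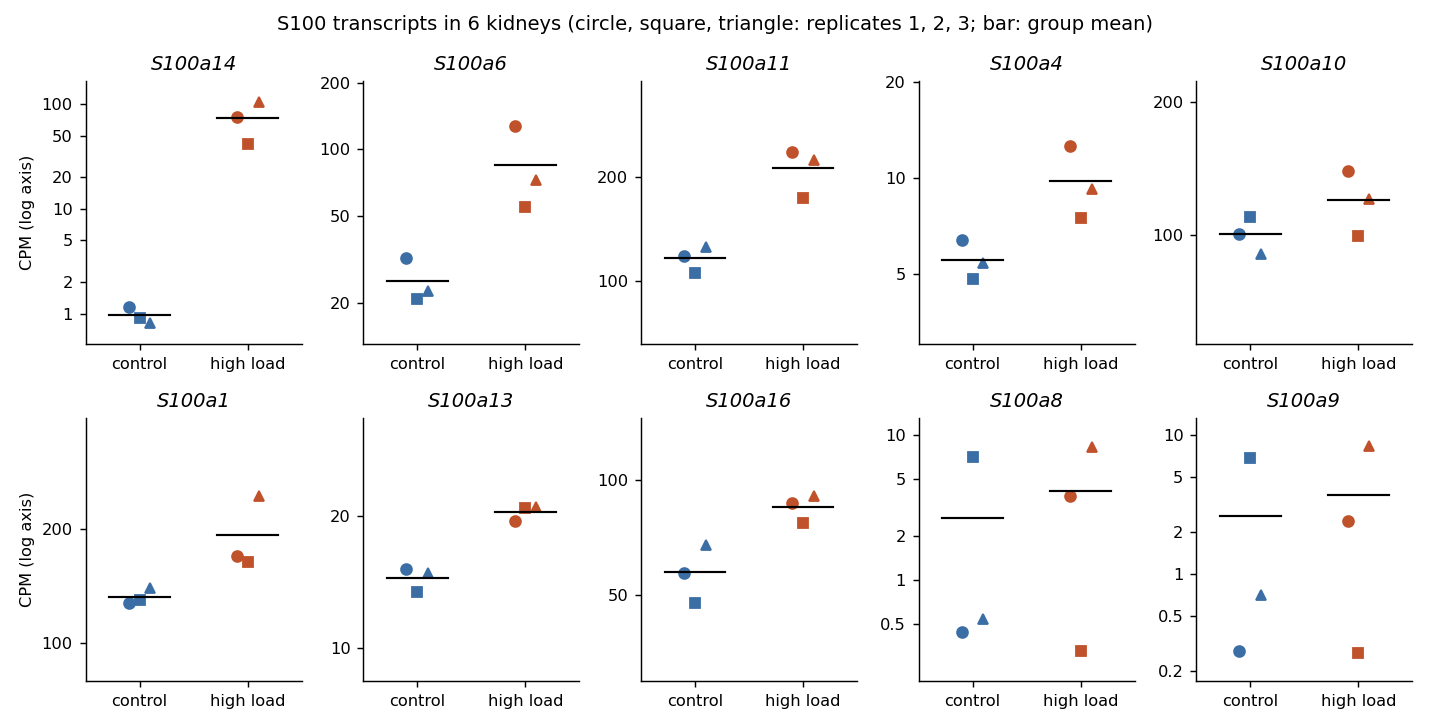
CPM (log axis, a separate scale in each panel) of the 10 S100 genes in 3 control and 3 high-load kidneys. Points are kidneys and horizontal bars group means, and the groups overlap for S100a10, S100a8 and S100a9 alone among the 10.

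S100a14 (ENSMUSG00000042306, chr3:90526856-90528837, plus strand, mm10) encodes a member of the family found mainly in epithelia. Its coding sequence, from the GENCODE M21 transcripts, is shown because this gene differed most of the 10. It has 315 bases with 104 codons before the stop, lies in 3 exons between positions 90527264 and 90528215, and its first 300 bases are written 5′ to 3′ with the start codon in capitals.

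S100a14: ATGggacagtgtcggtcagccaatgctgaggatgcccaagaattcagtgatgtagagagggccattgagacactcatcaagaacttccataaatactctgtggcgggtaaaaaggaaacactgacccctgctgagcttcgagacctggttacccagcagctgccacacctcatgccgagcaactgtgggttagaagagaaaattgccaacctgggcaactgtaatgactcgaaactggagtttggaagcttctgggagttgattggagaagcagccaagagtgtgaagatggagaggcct

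S100a14 stood at 1.16, 0.911 and 0.817 CPM in controls 1, 2 and 3. In high-load kidneys 1, 2 and 3 it stood at 74.5, 41.2 and 103 CPM. All controls were thus near 1 CPM, while the lowest high-load kidney was above 40 CPM. These values rest on 21, 15 and 15 reads in the controls and on 1577, 758 and 1859 reads in the high-load kidneys, so the baseline is a low one. The group means were 0.965 ± 0.180 CPM (SD, n = 3) and 73.1 ± 31.2 CPM, a 75.7-fold difference with a log2 fold change of 6.23 and an SE of 0.43. By log2 fold change S100a14 was in place 4 among all genes tested, and S100a6, the next member, in place 237. No exon of another gene overlaps S100a14, and none of 1950 stretches of 100 bases in its transcripts was found in a transcript of another gene, so its reads are not shared with a near copy. The log2 fold change stayed between 5.89 and 6.52 with any 1 library left out, although the gene was no longer called without any 1 of the controls or without high-load 1.

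The share of S100a14 among the summed CPM of the 10 members shows how the composition of the family moved. That sum was 459, 447 and 469 CPM in controls and 874, 640.02 and 903 CPM in high-load kidneys. S100a14 gave 0.254%, 0.204% and 0.174% of it in controls and 8.53%, 6.43% and 11.5% of it in high-load kidneys. Most of the larger sum in high-load kidneys thus lay in other members, which have a higher baseline.

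Of the members known to bind annexins, S100a6 had the next largest difference after S100a14. S100a6 (calcyclin, chr3:90612882-90624181, plus strand) is a cytoplasmic protein that binds annexins and the calcyclin-binding protein. Its levels were 32.2, 20.7 and 22.7 CPM in controls and 128, 54.9 and 72.7 CPM in high-load kidneys. Every high-load kidney was above every control, with high-load 1 far above the other two. The log2 fold change was 1.76 with an SE of 0.34, and it was 1.34 without high-load 1.

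S100a11 (calgizzarin, chr3:93520488-93526287, plus strand), which binds annexin A1, is one of the most abundant members in these kidneys. Its levels were 118, 105 and 125 CPM in controls and 236, 174 and 224 CPM in high-load kidneys. The groups are well apart relative to their spread, and the log2 fold change was 0.86 with an SE of 0.15. Of 412 stretches of 100 bases in its transcripts, 34% also occur in transcripts of Gm12854 or Gm7665, which have no counts here. Part of the S100a11 count thus depends on how the authors treated shared reads.

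S100a4 (chr3:90603771-90606045, plus strand), known from fibroblasts, leukocytes and motile cells and a binder of non-muscle myosin, was a low member. Its levels were 6.38, 4.80 and 5.39 CPM in controls and 12.6, 7.49 and 9.19 CPM in high-load kidneys. The groups did not overlap, and the gap between control 1 and high-load 2 was small. The log2 fold change was 0.82 with an SE of 0.24. An annotated gene on the same strand, Gm42674, overlaps it and holds 41.9% of its 100-base stretches. Gm42674 has no counts here, and how the authors treated reads in the overlap is not known.

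S100a10 (p11, chr3:93555080-93564643, plus strand) does not bind calcium and forms a complex with annexin A2 at membranes. It stood at 101, 110.1 and 90.8 CPM in controls and at 139.6, 99.8 and 121 CPM in high-load kidneys. High-load 2 was below controls 1 and 2, so the groups overlap. The log2 fold change was 0.26 with an SE of 0.14.

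S100a1, S100a13 and S100a16 had smaller differences. S100a1 (chr3:90511034-90514392, minus strand), best known as a regulator of calcium handling in heart muscle, stood at 128, 129.97 and 139.6 CPM in controls and at 169.9, 164 and 244 CPM in high-load kidneys. High-load 3 was well above the other two, and the log2 fold change was 0.54 with an SE of 0.17, or 0.33 without that kidney. S100a13 (chr3:90514435-90524581, plus strand), which takes part in the release of FGF1 and interleukin 1 alpha from cells, stood at 15.1, 13.4 and 14.8 CPM in controls and at 19.5, 20.9 and 21.04 CPM in high-load kidneys. Its spread was the smallest of the 10 by SE, with a log2 fold change of 0.50 and an SE of 0.10. S100a16 (chr3:90537254-90543151, plus strand), a broadly expressed member, stood at 57.3, 47.8 and 67.9 CPM in controls and at 87.3, 77.1 and 91.0 CPM in high-load kidneys. Its log2 fold change was 0.56 with an SE of 0.14. For these 3 genes the lowest high-load kidney was above the highest control.

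High-load 2 had the lowest level among high-load kidneys for 9 of the 10 members, S100a13 being the exception, and for all 10 when CPM was computed from library totals without TMM factors. Its load of 75% in the labels equals that of high-load 1. It was also the high-load kidney with the lowest summed level of 7 tubule injury genes (11492, 5697 and 10977 CPM in high-load 1, 2 and 3, against 2635 to 3892 CPM in controls) and the highest of the proximal tubule genes. The share of all genes that were lowest in high-load 2 was not counted, so the 9 of 10 is not read as particular to the members. The part of tissue makeup in the levels of the members was not tested.

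S100a8 and S100a9 did not follow the groups. Their products form calprotectin, the main cytosolic protein pair of neutrophils, and they are released in inflammation. S100a8 (chr3:90668978-90670035, plus strand) stood at 0.444, 7.05 and 0.545 CPM in controls and at 3.78, 0.326 and 8.18 CPM in high-load kidneys. S100a9 (chr3:90692632-90695721, minus strand) stood at 0.277, 6.81 and 0.708 CPM in controls and at 2.41, 0.271 and 8.35 CPM in high-load kidneys. Control 2 and high-load 3 were high for both genes, high-load 1 was between, and the other 3 kidneys were below 1 CPM, so each group holds both high and low kidneys. The log2 fold changes were 0.62 (SE 1.28) for S100a8 and 0.51 (SE 1.34) for S100a9, and neither has a stable direction. Without control 2 they were 3.03 and 2.87, and without high-load 3 they were -0.36 and -0.92.

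The ratio of the pair varied far less between kidneys than their levels. The ratio of S100a8 to S100a9 counts was 1.6, 1.04 and 0.769 in controls 1, 2 and 3 and 1.57, 1.2 and 0.98 in high-load 1, 2 and 3. In control 1, control 3 and high-load 2 it rests on 5 to 13 reads a gene, so the ratios of these kidneys are imprecise. Control 2 and high-load 3, with 112 to 150 reads a gene, had ratios near 1.

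Of 11 neutrophil genes, Ngp, Retnlg, Mmp8, Camp, Mpo and Elane had their highest levels in control 2 and high-load 3, the last 3 of these below 1 CPM. Ltf and Csf3r were highest in high-load 1 and Mmp9 in high-load 2, while Cxcr2 and Ly6g were highest in high-load 3 and next highest in high-load 1. Ngp, a protein of neutrophil granules, was at 2.31 CPM in control 2 and 3.12 CPM in high-load 3, and at 0 to 0.236 CPM in the other 4 kidneys. Retnlg, a secreted product of neutrophils, was at 1.88 and 1.39 CPM in these kidneys, and at 0 to 0.284 CPM in the others. Mmp8, the neutrophil collagenase, was at 1.03 and 1.56 CPM, with 0 to 0.473 CPM in the others. The summed level of the 11 was 7.82, 17.3 and 7.68 CPM in controls and 20.2, 10.7 and 24.3 CPM in high-load kidneys, so high-load 1 was above control 2. Csf3r, the receptor for granulocyte colony-stimulating factor, gave the largest share of it in every kidney. In control 1, Ly6g, Mpo, Elane, Ngp and Retnlg were at 0, in control 3, Ly6g, Mpo and Retnlg, and in high-load 2, Mpo, Elane, Camp and Mmp8 were at 0. Of the 11, 3 passed the filter and 0 were called in edgeR's test, with 1 higher at an unadjusted p under 0.05 (14% of all genes), 1 in DESeq2 (4.51%) and 0 in limma-voom. Control 2 also held the most red cell mRNA, with 1822 CPM summed over Hbb-bs, Hba-a1 and Alas2 against 74.4 to 299 CPM in the other kidneys. High-load 3, which was as high in S100a8 and S100a9, had the lowest red cell level of the 6. The part of blood cells in the levels of S100a8 and S100a9 was not tested.

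**Figure D2:**
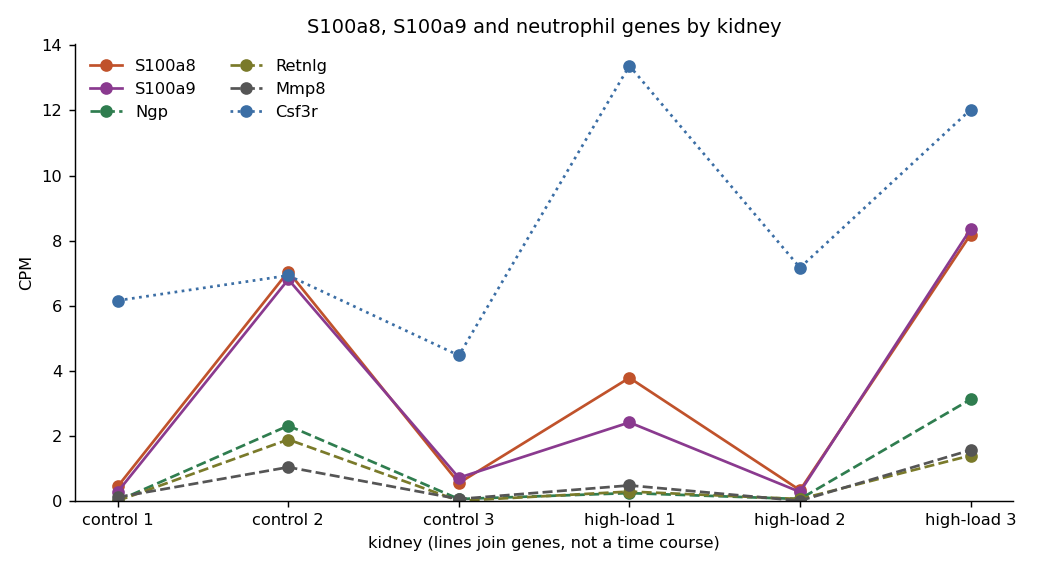
CPM of S100a8, S100a9 and 4 neutrophil genes in each kidney, with lines joining the values of a gene. S100a8, S100a9, Ngp, Retnlg and Mmp8 are highest in control 2 and high-load 3, while Csf3r is highest in high-load 1 and high-load 3.

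Outside the list, S100g was the 1 other S100 gene with enough reads to test. It encodes calbindin-D9k, which carries calcium through cells of the distal tubule and is regulated by vitamin D, and it lies on chromosome X. S100g stood at 163, 166 and 82.5 CPM in controls and at 49.96, 95.1 and 76.9 CPM in high-load kidneys. Control 3 was below high-load 2, so the groups overlap, and the log2 fold change was -0.89 with an SE of 0.33 and an adjusted p of 0.174 in edgeR's quasi-likelihood test. Over the 6 libraries together, S100a7a had 41 reads, S100b 33, S100a3 14, S100a2 5, S100z 5 and S100a5 2, too few for the test.

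Levels of different genes were compared per kilobase of exon, with CPM divided by the summed length of a gene's exons. In controls the order of the means was S100g (286), S100a11 (227), S100a1 (191), S100a10 (83.0), S100a16 (35.7), S100a13 (20.2), S100a6 (18.4), S100a4 (9.46), S100a9 (4.98), S100a8 (3.86) and S100a14 (0.558), all in CPM per kb. The ranges over kidneys overlapped between S100g and S100a11, between S100a13 and S100a6, and between all neighbours from S100a4 down, so those orders are not separated. In high-load kidneys the order was S100a11 (414), S100a1 (278), S100g (154), S100a10 (99.0), S100a6 (62.4), S100a16 (52.6), S100a14 (42.3), S100a13 (28.6), S100a4 (16.7), S100a9 (7.04) and S100a8 (5.90). There the ranges were apart between S100a1 and S100g and between S100a13 and S100a4, and overlapped between all other neighbours. S100a14 was in place 11 of 11 in controls and in place 7 in high-load kidneys, at a level between those of S100a16 and S100a13. With the longest transcript in place of all exons as length, S100a10 (175) stood above S100g (154) in high-load kidneys and S100a6 (32.2) above S100a13 (20.2) in controls.

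**Figure D3:**
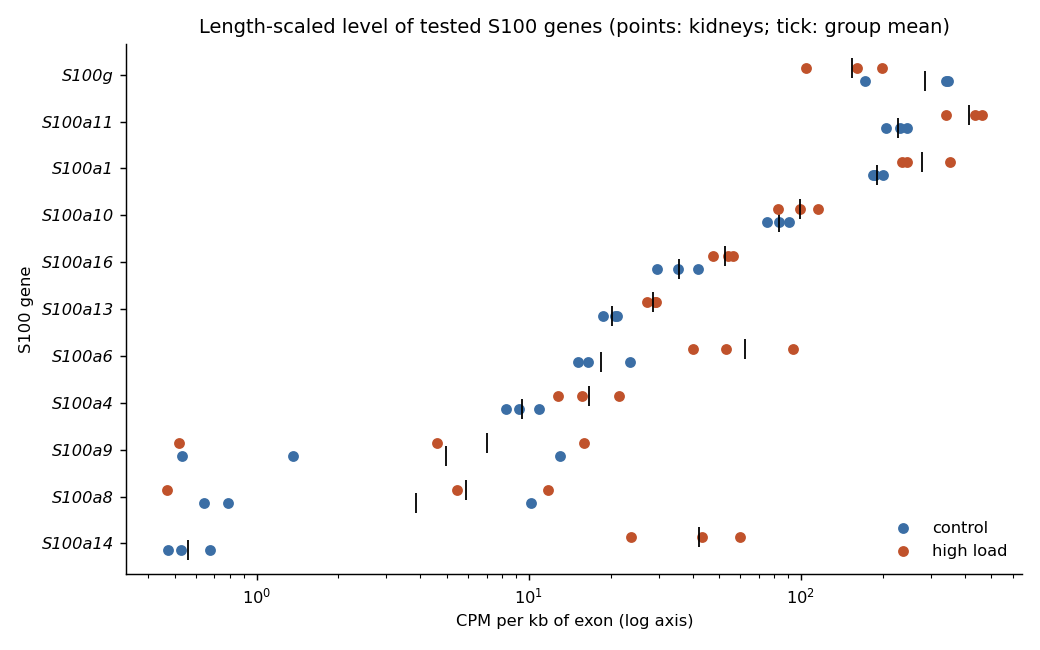
Level of the 11 tested S100 genes in CPM per kb of exon (log axis), with points for kidneys and ticks for group means, ordered by the control mean. S100a14 lies at 0.473 to 0.675 in controls and 23.8 to 59.9 in high-load kidneys, while S100g is the 1 gene whose high-load mean is below its control mean.

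Of the annotated S100 genes, 14 lie on chromosome 3 between positions 90511034 and 93564643. They form a block of 184.7 kb that runs from S100a1 to S100a9 and a second block of 44.2 kb with S100a11 and S100a10. The 2 blocks are 2.82 Mb apart, and 66 other genes of the table lie between them, of which 8 were tested. S100a14 starts 2.28 kb after the end of S100a13 and ends 8.42 kb before the start of S100a16. Both neighbours had log2 fold changes near 0.5 against 6.23 for S100a14, so the size of the difference was not shared along the block.

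Genes around the cluster were tested because their selection did not use their values. Within the span of the cluster and 500 kb on each side lay 97 other genes of the table, and 27 were tested. In edgeR's test 0 of the 27 were called, with 4 higher and 2 lower at an unadjusted p under 0.05 (14% and 10.2% of all genes), 2 higher in DESeq2 (4.51% of all genes) and 0 in limma-voom. Ivl and Sprr2f are among the 4 higher and are the 2 called by DESeq2. They passed the filter on low counts only through high-load kidneys and did not pass a filter of 1 CPM in 3 libraries. No weight is put on either count. Over the 27 the median log2 fold change was 0.076, with a range from -0.80 to 4.55. The genes that flank the first block on the left, Snapin, which acts in vesicle transport, and Chtop, a chromatin-bound protein of mRNA export, had log2 fold changes of 0.10 and 0.05. Snapin and Chtop start 38.8 and 27.9 kb before S100a14. On the right, the next tested genes that are not S100 genes were Sprr2f and Gm9774, with 4.55 and -0.10. These do not adjoin the first block, as they start 1838 and 1901 kb after the start of S100a14.

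The 4 neighbours with the smallest p were genes of the skin barrier or hair follicle. Ivl, the envelope protein involucrin, was at 0.499, 0.182 and 0.109 CPM in controls and at 3.50, 0.814 and 1.00 CPM in high-load kidneys. Its log2 fold change was 2.73 with an SE of 0.80 and an adjusted p of 0.130. Sprr2f, a small proline-rich protein of the envelope, was at 0.333, 0.304 and 0 CPM and at 12.3, 0.651 and 2.06 CPM, with an adjusted p of 0.131. Sprr2 genes are near copies of each other, so its count is uncertain. Sprr1a, of the same family, was at 11.5, 5.77 and 3.87 CPM and at 78.0, 11.3 and 16.4 CPM, with a log2 fold change of 2.32, an SE of 0.82 and an adjusted p of 0.161. All 3 were far highest in high-load 1, and without that kidney the log2 fold change was 1.76 for Ivl, 2.66 for Sprr2f and 0.97 for Sprr1a. Tchh, the hair follicle protein trichohyalin, was lower in each high-load kidney than in each control, with a log2 fold change of -0.60, an SE of 0.20 and an adjusted p of 0.154.

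**Figure D4:**
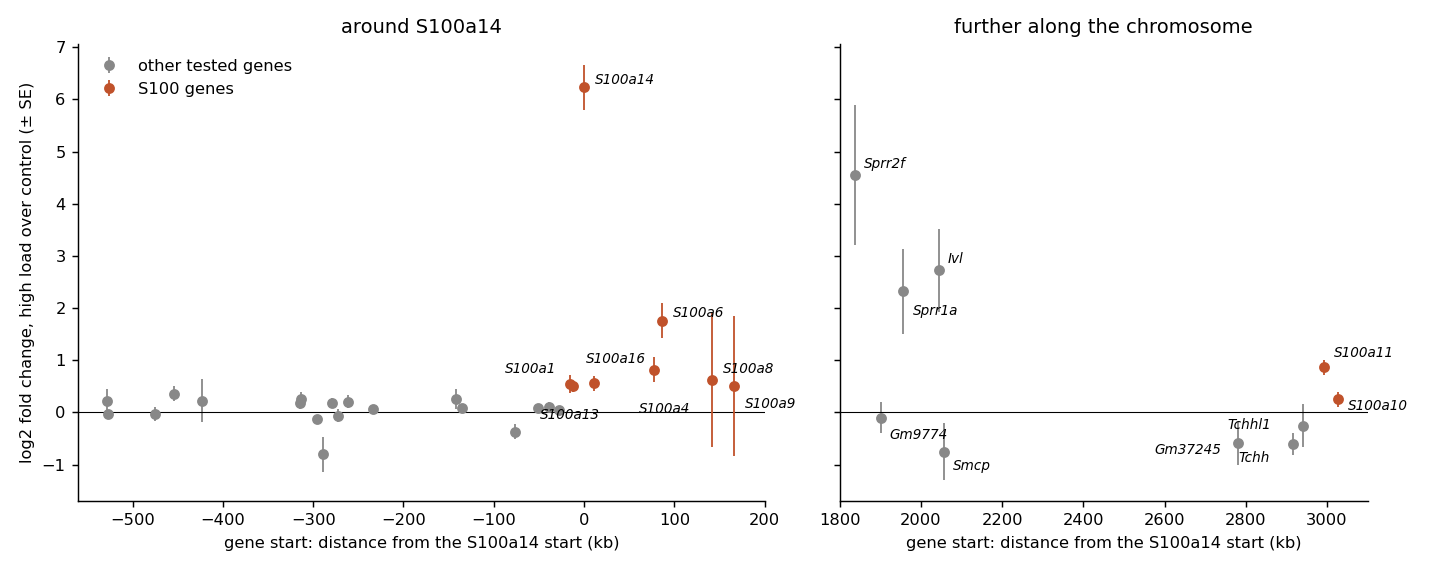
Log2 fold change (± SE) of the 10 S100 genes and the 27 tested neighbours against the distance of each gene's start from that of S100a14 in kb, with the stretch between the panels left out. S100a14 is at 6.23, the other S100 genes lie between 0.26 and 1.76, and the neighbours to the left lie between -0.80 and 0.36.

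High-load 1 also had the highest level of urothelial genes, which mark the lining of the renal pelvis. The summed level of 8 such genes was 63.5, 48.9 and 18.5 CPM in controls and 293, 7.98 and 8.52 CPM in high-load kidneys. Of the 8, 0 were called in edgeR's test and 0 at an unadjusted p under 0.05, by DESeq2 or by limma-voom. In high-load 3, Krt5 and Upk3a were at 0, and in high-load 2, Krt5 was at 0. The urothelial sums of these 2 kidneys were below every control. S100a14 was at 103 CPM in high-load 3 and 41.2 CPM in high-load 2, above every control, and the part of urothelium in its level was not tested. S100a6, S100a11, S100a4 and S100a10 were highest in high-load 1. Without that kidney the log2 fold changes of S100a11, S100a4 and S100a10 were 0.78, 0.60 and 0.14, and the part of urothelium in their levels was not tested.

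Sums of simple epithelial keratins and of tubule injury genes, like S100a14, were higher in each high-load kidney than in each control. The keratins are not specific to damage, and Krt7 and Krt8 had means of 90.0 and 111 CPM in controls. Over 5 keratin genes the sum was 245, 241 and 205 CPM in controls and 892, 300.2 and 529 CPM in high-load kidneys. Of the 5, 3 had groups that did not overlap with high load higher (17.1% of all genes), while the groups overlapped for Krt19 and Krt20. Krt20 is also in the urothelial list, and both the keratin sum and the urothelial sum were highest in high-load 1. In edgeR's test 0 of the 5 were called, with 4 higher at an unadjusted p under 0.05. Of the 7 tubule injury genes 0 were called, with 7 higher at an unadjusted p under 0.05. DESeq2 called 4 and 7 of these higher, limma-voom 0 and 0. Over all genes, 14% were higher at an unadjusted p under 0.05 and 4.51% in DESeq2. Their part in the level of S100a14 was not tested.

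**Figure D5:**
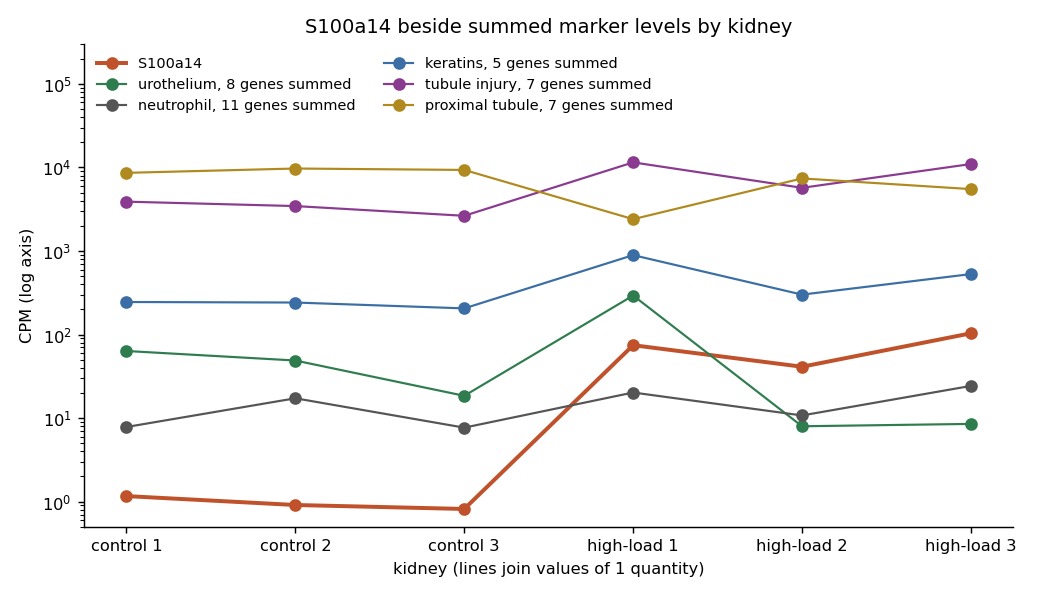
S100a14 level and summed level of 5 marker lists in each kidney, in CPM on a log axis. Urothelial genes reach 293 in high-load 1 and are at 7.98 and 8.52 in high-load 2 and 3. S100a14 is between 41.2 and 103 in the 3 high-load kidneys.

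Other cell types were checked by their markers in the same way, and 0 genes of these lists were called in edgeR's test or in limma-voom. The shares over all genes, here and for the nephron lists, are 14% higher and 10.2% lower at an unadjusted p under 0.05, and 4.51% and 2.62% in DESeq2. Macrophage genes summed to 466 to 578 CPM in controls and 1505, 776 and 1047 CPM in high-load kidneys 1, 2 and 3, with 9 of 10 higher at an unadjusted p under 0.05 and in DESeq2. Fibroblast genes summed to 341 to 593 CPM and 653 to 1026 CPM, with 3 of 7 higher by both. T cell genes summed to 8.20 to 21.4 CPM and 18.1 to 43.3 CPM, with 3 of 5 higher at an unadjusted p under 0.05 and 0 in DESeq2. S100a4, which leukocytes and fibroblasts express, was highest in high-load 1, as were the macrophage and T cell sums, while the fibroblast sum was highest in high-load 2. Endothelial genes summed to 442 to 578 CPM and 294 to 536 CPM, with 0 of 5 at an unadjusted p under 0.05 and 0 in DESeq2. Their part in the levels of the S100 genes was not tested.

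For each of 7 lists of nephron segment markers the median log2 fold change was below 0, from -0.21 to -0.96. At an unadjusted p under 0.05, 1 of 7 proximal tubule, 1 of 2 thick ascending limb, 1 of 4 inner medulla and 1 of 3 intercalated cell genes were lower, and 1 of 5 principal cell and 1 of 3 intercalated cell genes were higher. DESeq2 called the same numbers, apart from 0 principal cell genes. No gene of the distal convoluted tubule, podocyte or red cell lists was at that level or was called by DESeq2. S100g, expressed in the distal tubule, had its lowest level in high-load 1, where the sum of the 3 distal convoluted tubule genes was also lowest (963 CPM, against 2032 to 3042 CPM in the other 5 kidneys).

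Partners of S100 proteins were tested as a separate list. It held 19 genes for proteins that bind S100 proteins in cells or receive them outside, of which 17 were tested. In edgeR's test 0 were called, with 4 higher and 3 lower at an unadjusted p under 0.05 (14% and 10.2% of all genes), 3 higher and 2 lower in DESeq2 (4.51% and 2.62%), and 0 in limma-voom. Without high-load 2, edgeR called 1 higher and 1 lower, where it called 544 of all genes higher and 263 lower. The median log2 fold change was 0.17.

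Anxa1, annexin A1, which binds S100a11 and S100a6 and acts in membrane repair and the end of inflammation, was at 36.8, 21.4 and 27.1 CPM in controls and at 111, 50.6 and 77.4 CPM in high-load kidneys. Its log2 fold change was 1.48 with an SE of 0.32 and an adjusted p of 0.0981. Cd36, a fatty acid receptor, was lower in each high-load kidney, at 229.9, 271 and 289 CPM against 125, 177 and 144 CPM, with an adjusted p of 0.0946. Anxa6 and Ahnak, a giant scaffold protein that binds S100a10 with annexin A2, had log2 fold changes of 0.64 and 0.68 and adjusted p of 0.120 and 0.142, and that of Ahnak was 0.43 without high-load 1. In each of these 4 genes the groups did not overlap, and in 3 of them high load was the higher. They were picked by smallest p, which favours groups that do not overlap, so nothing is read from this. Of the 17 partners tested, 6 had groups that did not overlap with high load higher and 2 with high load lower (17.1% and 15.8% of all genes). Anxa2 was singled out after its values were seen, as the partner of S100a10. It stood at 81.0, 55.3 and 71.9 CPM in controls and at 166, 78.1 and 101 CPM in high-load kidneys, with groups that overlap, a log2 fold change of 0.73 (0.37 without high-load 1) and an adjusted p of 0.191. Its exons overlap those of an antisense gene, so its count is less certain. Fgf1, a growth factor that S100a13 helps to release, was likewise singled out after its values were seen. It stood at 384, 373 and 447 CPM in controls and at 184, 333 and 253 CPM in high-load kidneys, with groups that do not overlap, a log2 fold change of -0.65 (-0.45 without high-load 1), an SE of 0.22 and an adjusted p of 0.159. The receptors Ager (RAGE) and Tlr4 had log2 fold changes of 0.09 and 0.44, with adjusted p of 0.867 and 0.229.

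Proteins with EF hands outside the S100 family were the other list. Of 18 genes 16 were tested and 0 were called in edgeR's test, with 7 higher and 1 lower at an unadjusted p under 0.05 (14% and 10.2% of all genes), 4 higher and 1 lower in DESeq2 (4.51% and 2.62%), and 0 in limma-voom. Without high-load 2, edgeR called 3 higher and 0 lower, where it called 544 of all genes higher and 263 lower. Their median log2 fold change was 0.10. The 4 with the smallest p were Rcn1, a calcium-binding protein of the endoplasmic reticulum (log2 fold change 0.97, adjusted p 0.0946), Efhd2, an actin-binding protein of leukocytes (0.74, 0.0998), Lcp1, the leukocyte actin bundler L-plastin (0.77, 0.102), and Calm2, a calmodulin gene (0.40, 0.130). Each was higher in every high-load kidney than in every control, which the choice by smallest p favours, and exons of Lcp1 overlap antisense genes. Of the 16 tested, 7 had groups that did not overlap with high load higher and 2 with high load lower (17.1% and 15.8% of all genes). Calb1, the calbindin of the distal tubule and like S100g a vitamin D target, was singled out after its values were seen. It stood at 397, 319 and 335 CPM in controls and at 122, 238 and 231 CPM in high-load kidneys, with a log2 fold change of -0.83 (-0.58 without high-load 1), an SE of 0.26 and an adjusted p of 0.142.

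Genes whose pattern over the 6 kidneys was most like that of S100a14 were found among 13716 genes with a mean of at least 1 CPM that are not predicted models. The measure was the root mean square difference of log2 CPM after centring on the control mean. The 5 nearest were Sftpd, the collectin surfactant protein D (1.37), Cxcl17, a chemokine of mucosal epithelia (1.41), Trib3, a pseudokinase of the integrated stress response (1.58), Meltf, melanotransferrin (1.63), and Spink12, named as a Kazal-type protease inhibitor (1.68). Sftpd was at 0.166, 0.608 and 0.218 CPM in controls and at 12.9, 3.58 and 9.30 CPM in high-load kidneys, and Trib3 at 2.11, 0.668 and 2.12 CPM and at 24.8, 14.4 and 33.8 CPM. Log2 fold changes of the 5 were 3.88 to 4.79, smaller than that of S100a14. Control means of Sftpd, Cxcl17, Meltf and Spink12 were 0.331, 0.204, 0.350 and 0.133 CPM. They reached a mean of 1 CPM only through the high-load kidneys, and their fold changes rest on a low baseline. Sftpd, Meltf and Spink12 were highest in high-load 1, while S100a14, Cxcl17 and Trib3 were highest in high-load 3.

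S100a6 had far closer neighbours in pattern. Tlr1, a receptor for bacterial lipopeptides (0.118), Runx1, a transcription factor of blood and injured epithelia (0.126), and Wnt4, a signal of kidney development (0.137), were the nearest, and Runx1 has exons that overlap an antisense gene. Tlr1 was at 4.49, 2.80 and 3.81 CPM in controls and at 19.5, 8.47 and 12.1 CPM in high-load kidneys, with the same order of high-load 1, 3 and 2 as S100a6. S100a8 and S100a9 were each other's nearest gene (0.335). Next for both came Cyp27b1, the kidney enzyme that makes active vitamin D, and Slfn4, a gene of myeloid cells. Cyp27b1 was at 4.16, 25.0 and 1.47 CPM in controls and at 11.7, 3.37 and 16.4 CPM in high-load kidneys, again with control 2 and high-load 3 highest. Its differences from S100a8 and S100a9 were 0.780 and 0.979, and those of Slfn4 were 0.891 and 0.984. The lists share libraries and depth, and the likeness is a description over 6 kidneys.

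Promoter windows from 250 bases before to 50 bases after the annotated start were available from RefSeq (GRCm38.p6) for 8 of the 10 members, not for S100a14 and S100a10. Both strands were searched for 4 motifs: TATAAA (the TATA box), TGANTCA (bound by AP-1), TTGCNNAA (bound by C/EBP factors of myeloid cells) and TGATGNAA (bound by C/EBP with ATF4). These motifs occur in 13.6%, 7.81%, 10.8% and 3.97% of 32851 windows of the same length. A match describes the letters and is no evidence of binding. The following windows are shown for the pair that moved together and for the 2 members with large differences that have a window, each 5′ to 3′ on the gene's strand, with motif matches in capitals.

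S100a8: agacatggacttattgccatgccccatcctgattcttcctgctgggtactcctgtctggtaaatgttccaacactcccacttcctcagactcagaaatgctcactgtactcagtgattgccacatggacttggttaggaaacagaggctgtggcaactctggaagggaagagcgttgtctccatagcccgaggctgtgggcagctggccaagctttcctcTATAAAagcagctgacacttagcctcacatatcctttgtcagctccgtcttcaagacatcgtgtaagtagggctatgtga

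S100a9: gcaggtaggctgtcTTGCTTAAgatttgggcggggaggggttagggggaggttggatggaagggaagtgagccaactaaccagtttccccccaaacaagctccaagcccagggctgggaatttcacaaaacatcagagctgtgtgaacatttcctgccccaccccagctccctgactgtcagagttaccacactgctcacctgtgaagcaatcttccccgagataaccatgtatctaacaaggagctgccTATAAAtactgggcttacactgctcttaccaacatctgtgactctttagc

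S100a6: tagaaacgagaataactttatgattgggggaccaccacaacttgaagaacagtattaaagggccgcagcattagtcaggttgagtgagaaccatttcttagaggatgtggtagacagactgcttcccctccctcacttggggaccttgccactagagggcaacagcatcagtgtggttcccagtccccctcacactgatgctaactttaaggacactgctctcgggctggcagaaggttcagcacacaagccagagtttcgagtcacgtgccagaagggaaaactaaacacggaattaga

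S100a11: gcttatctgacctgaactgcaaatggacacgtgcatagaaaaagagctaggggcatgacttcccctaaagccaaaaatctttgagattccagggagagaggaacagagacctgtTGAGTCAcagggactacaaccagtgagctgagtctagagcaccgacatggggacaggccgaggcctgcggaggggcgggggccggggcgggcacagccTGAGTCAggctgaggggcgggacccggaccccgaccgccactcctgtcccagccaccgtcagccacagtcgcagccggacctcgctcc

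The S100a8 window (chr3:90668821-90669120, plus strand) has TATAAA 30 to 25 bases before the start. In the S100a9 window (chr3:90695672-90695971, minus strand) TATAAA begins at the annotated start itself, and TTGCNNAA is found 236 to 229 bases before it. S100a8 and S100a9 start 26.7 kb apart on opposite strands, so they do not share a promoter window. The S100a6 window (chr3:90612644-90612943, plus strand) holds 0 matches of the 4 motifs. The S100a11 window (chr3:93520246-93520545, plus strand) holds TGANTCA at 136 to 130 and again at 38 to 32 bases before the start. Among the others, S100a4 has TATAAA 31 to 26 bases before its start, 1 of the windows of S100a16 has TGANTCA, and S100a1 and S100a13 have no match. TGATGNAA was found in 0 of the 9 windows of the 8 members.

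S100a1 and S100a13 lie head to head, with 104 bases between the RefSeq starts that define these windows and 42 bases between the gene starts in GENCODE M21. The stretch of 204 bases that their windows share (chr3:90514281-90514484, plus strand of mm10) is shown because a single short region lies before both genes. The capitals mark the 104 bases between the RefSeq starts.

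S100a1 and S100a13: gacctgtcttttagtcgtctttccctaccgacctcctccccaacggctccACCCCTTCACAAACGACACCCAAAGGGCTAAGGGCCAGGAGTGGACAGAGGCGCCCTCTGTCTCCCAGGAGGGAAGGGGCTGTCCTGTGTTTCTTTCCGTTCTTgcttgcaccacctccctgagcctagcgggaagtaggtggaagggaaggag

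The 2 genes differ in level, with 191 CPM per kb for S100a1 and 20.2 for S100a13 in controls. Their log2 fold changes were 0.54 and 0.50, and 0.33 and 0.48 without high-load 3. The ratio of S100a1 to S100a13 counts was 8.42, 9.68 and 9.42 in controls and 8.72, 7.84 and 11.6 in high-load kidneys, and the groups overlap. S100a11 and S100a10, the pair of the second block, differed in this respect, with a ratio of counts of 1.17, 0.955 and 1.38 in controls and of 1.69, 1.74 and 1.86 in high-load kidneys, which do not overlap.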

How the data were processed

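The authors deposited raw counts for Ensembl genes in 1 table of 6 columns, a kidney in each. Per the labels' protocols, TRIzol was used for extraction and an Illumina TruSeq kit for the libraries. Per the submitters' processing notes, the tools were fastp 0.23.2, HISAT2 2.2.1, SAMtools 1.11, featureCounts 2.0.1 and edgeR without a version, on mm10. The treatment of strand and of multiply mapping reads, and the annotation, were not given in the sources used here, so overlapping genes and near copies have uncertain counts. Symbols, positions and lengths came from GENCODE M21, which matched 32158 of 32285 IDs.

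Groups came from sample titles. Counts were analysed in R 4.3.3 with edgeR 4.0.16: filterByExpr with a minimum count of 10, TMM factors (0.944 to 1.139), a robust quasi-likelihood fit on group, two-sided tests and Benjamini-Hochberg adjustment over 15955 genes at 0.05. The biological coefficient of variation was 22.97%. SEs were derived from the F statistic. P-values measure the spread between these kidneys. Exact permutation of 3 against 3 cannot give a two-sided p below 0.1 and was not used. DESeq2 1.42.0, limma-voom (limma 3.58.1), other scalings, filters and lengths, mutation load as a number, and leaving out libraries were alternatives. The edgeR quasi-likelihood fit was run on simulated data, and the alternatives were not.

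Members, gene lists, tests and the naming rule were chosen with earlier results of these data known. The rule names all S100 genes, the 4 genes with the smallest p of the partners, EF-hand genes and neighbours, the flanking genes, and the genes nearest in pattern. Replicate libraries differed by at least 19.98 times counting variance (chi-square per degree of freedom), so each counts as its own. Same-numbered libraries deviated with correlations of 0.124, -0.182 and 0.049, and differently numbered ones with -0.277 to 0.313. With 3 libraries per group these values cannot settle whether the numbers pair libraries. The main fit was unpaired.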

Additional observations from a re-analysis of the deposited data

How the results depend on the processing

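All genes called at an adjusted p under 0.05 numbered 3 in the edgeR test. They numbered 1698 with DESeq2, 0 with limma-voom, 10 with mutation load as a number, 50 with no filter on low counts, 511 at an adjusted p under 0.1, and 0 to 807 with 1 library left out (0 without any 1 control or high-load 1, 807 without high-load 2). Members called numbered 1. They numbered 6 with DESeq2 (S100a4, S100a6, S100a11, S100a13, S100a14 and S100a16), 0 with limma-voom, 4 at an adjusted p under 0.1, and 0 to 3 with 1 library left out (S100a6, S100a11 and S100a14 without high-load 2). Leaving out control 2 and high-load 1 together, an alternative chosen after seeing the data, gave 0 genes and 0 members, with a log2 fold change of 6.18 for S100a14. S100a8 did not pass the filter there and gave no value.

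With the replicate number as a block, 1 gene and 0 members were called. S100a14 had a log2 fold change of 6.18 there, with an adjusted p of 0.0545 in edgeR's quasi-likelihood test. The labels do not say whether the numbers mark a shared litter or batch.

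Partners called numbered 0 against 5 with DESeq2 and 0 to 2 with 1 library left out (2 without high-load 2). EF-hand genes numbered 0 against 5 with DESeq2 and 0 to 3 (3 without high-load 2), and neighbours 0 against 2 with DESeq2 (Ivl and Sprr2f). With the longest transcript as length, control levels were 51.2 CPM per kb for S100a16, 11.1 for S100a4, 32.2 for S100a6 and 147 for S100a10. With any 1 library left out, the log2 fold change of S100a8 ranged from -0.36 (without high-load 3) to 3.03 (without control 2). That of S100a9 was lowest at -0.92 (without high-load 3), with -0.031 without control 1. It was highest at 3.10 with control 2 and high-load 1 left out together. Gm9774 ranged from -0.29 (without control 3) to 0.072 (without high-load 2; 0.0073 without control 2) and was at 0.030 with library totals. Cyp27b1, at 0.042, ranged from -0.48 (without control 3) to 1.89 (without control 2), with -0.34 without control 1, -0.039 without high-load 1, -0.43 without high-load 3 and -0.071 with load as a number. The causes were not tested. S100a14 kept its direction in all 17 settings (5.89 to 6.52). Baseline counts of 15 to 21 limit the precision of its fold change.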
